A study of Homo sapiens with 8 samples.

Results

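The genes described here are 33 transcriptional targets of the tumour suppressor p53, listed by name and found by their symbols among 60796 genes measured in HT-29 cells, a line established from a human colorectal adenocarcinoma. All 33 had 1 row each. Of these, 30 passed the filter on low values (FPKM, reads scaled to gene length and sequencing depth, of 1 or more in at least 2 libraries), as did 13388 genes in all. There were 4 groups, the control, 5-fluorouracil (5-FU), the 74 3NP extract and the 76 3P extract, each with 1 library at 24 h and 1 at 48 h, so 8 libraries in all. The extracts come from the rice MRQ 74 and MRQ 76 and were applied at their IC50, the concentration of half-maximal inhibition. Among the details not given in the sources used here were doses, the vehicle of the controls and the meaning of 3NP and 3P. Groups follow the sample titles, because the treatment field reads plant extract throughout, even for controls. All libraries come from 1 cell line, and nothing in the labels ties them to separate cultures.

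The protein p53 is a transcription factor that is stabilised after DNA damage and other stresses. It binds paired copies of a short half-site near its target genes and raises transcripts that halt the cell cycle (CDKN1A), repair DNA (DDB2, XPC), start apoptosis (BAX, BBC3, PMAIP1) or shut p53 itself down again (MDM2, PPM1D). HT-29 is a p53-mutant line, p53 activity was not measured, and the factor behind any difference below was not tested. Many of the same genes also respond to other factors. GADD45A, SESN2, BBC3, PMAIP1 and GDF15, for example, are known to respond to the integrated stress response, which runs through the factors ATF4 and CHOP (the product of DDIT3).

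Sequences that resemble the element p53 binds are shown for the members that hold a match close to an annotated start. They are matches of letters, and binding was not measured. The 250 bases before each RefSeq gene start (GRCh38.p14) were searched for the p53 response element, taken as 2 adjacent half-sites with the conserved C and G of each half-site kept and up to 3 other mismatches. The element reads the same on both strands, and the limit of 3 mismatches was chosen after the matches were seen. Of the 29 members with a window, 6 held such a match, against 0.914% of all 35116 windows, and with up to 2 mismatches AEN and MDM2 held one, against 0.242% of windows. A member counted if any window with its symbol matched, while the background counts windows, so the 2 shares are in unlike units. The matches are given 5′ to 3′ on the strand of the gene, with the 20 bases of the element in capitals and up to 30 bases on each side.
AEN, chr15:88621276-88621339, plus strand: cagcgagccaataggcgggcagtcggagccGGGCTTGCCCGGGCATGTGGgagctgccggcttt
MDM2, chr12:68808893-68808972, plus strand: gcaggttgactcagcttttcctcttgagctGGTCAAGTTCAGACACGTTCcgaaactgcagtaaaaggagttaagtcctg
PMAIP1, chr18:59899781-59899860, plus strand: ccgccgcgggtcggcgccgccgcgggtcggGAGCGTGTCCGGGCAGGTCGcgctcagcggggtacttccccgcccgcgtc
RPS27L, chr15:63157497-63157576, minus strand: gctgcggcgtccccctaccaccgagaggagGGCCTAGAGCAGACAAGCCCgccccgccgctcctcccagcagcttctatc
SESN1, chr6:109008989-109009067, minus strand: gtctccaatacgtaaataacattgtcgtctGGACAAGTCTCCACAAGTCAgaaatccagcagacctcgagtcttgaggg
FDXR, chr17:74872995-74873045, minus strand: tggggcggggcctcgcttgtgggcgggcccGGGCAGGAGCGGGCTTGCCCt
In AEN the match ends 15 bases before the start, and in MDM2 it lies before the internal start, ending 75 bases upstream of it. The matches of RPS27L, SESN1 and FDXR also lie inside the gene spans of the deposited coordinates, each before a RefSeq start within the span. For SESN1, on the minus strand, the span begins at 109094819, far upstream of the match. No match means only that these letters were not in this window.

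Each library held between 18141663 and 28048517 reads on genes. The 5-FU 48 h library had the lowest FPKM denominator relative to its reads, so scaling to total reads instead lowered its median gene by 0.11 on the log2(FPKM + 1) scale and raised that of the controls by 0.05 and 0.04. Mitochondrial transcripts made up 2.96% and 3.18% of reads in the controls, 5.52% in the 5-FU 48 h library and 6.83% in the 76 3P extract 48 h library. Of 11 markers of colon epithelium 9 passed the filter, with EPCAM at FPKM 215 to 350, while CDX1 and GPA33 stayed under 1. Although the labels call the cells enterocytes, 5 of 6 markers of absorptive enterocytes (ALPI, SI, FABP2, APOA4 and LCT) were under FPKM 1 in all 8 libraries. Of 10 blood, stromal and endothelial markers 6 were under 1 everywhere, and their summed level of 226 to 608 was mostly LYZ, at 215 to 601. In bulk RNA, fewer cells that express a gene and less of its RNA per cell cannot be told apart.

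Among the members, levels per gene length spanned from FPKM 101 to 508 for GDF15, which encodes a secreted stress hormone, to at most 0.243 for EDA2R, a receptor of the TNF family, and 0.146 for SPATA18, a mitochondrial quality control gene. CDKN1A, PERP, CCNG1, BAX and GADD45A followed GDF15, with control means of FPKM 40.1, 47.1, 48.1, 37.2 and 34.1.

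**Figure D1:**
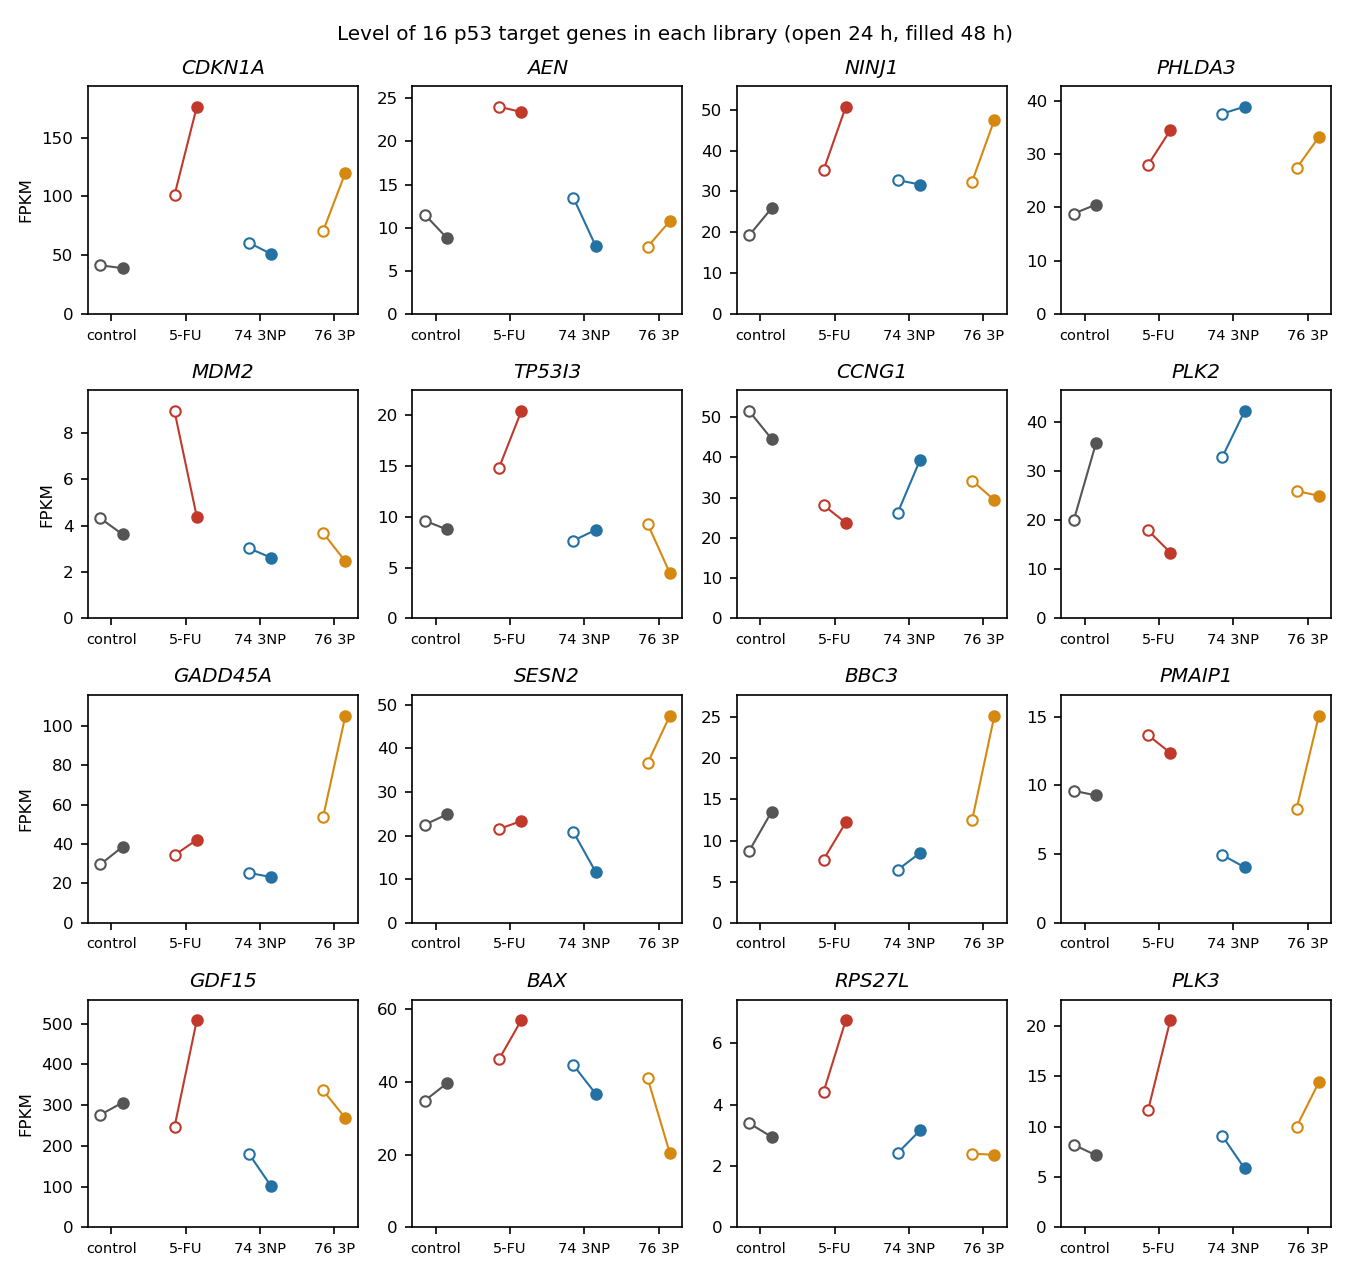
FPKM (y axis, from 0) of 16 members in each of the 8 libraries, by treatment (x axis), with open circles for 24 h and filled circles for 48 h joined by a line. CDKN1A is highest with 5-FU at each time, AEN is highest in both 5-FU libraries, GADD45A and SESN2 in the 76 3P extract libraries, and PMAIP1 and GDF15 are lowest in the 74 3NP extract libraries.

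The first comparison asked how these genes stood after 5-FU, a pyrimidine analogue that inhibits thymidylate synthase. CDKN1A and AEN rose, while the FPKM of CCNG1 and PLK2 was below both controls in both 5-FU libraries. With 1 library per treatment and time, a limma fit of all 8 libraries with time as a term gave the difference of each treatment averaged over 24 h and 48 h, so n was 2 libraries per treatment. The test called 2 of 30 members, both higher, where 5.53% of all 13388 genes were called, 2.51% higher and 3.02% lower. At an unadjusted p under 0.05, 8 members were higher and 3 lower, where 14.8% and 14.2% of all genes were, and limma voom on recovered reads called AEN, CDKN1A and NINJ1 and 8.59% of all genes. Of the 30 members 22 were higher and 8 lower, with a median difference of 0.20 against 0.00 for all genes. Both 5-FU libraries lay above both controls for 15 members (32.7% of all genes) and below both for 5 members (29.9% of all genes). Counts of 1.5-fold differences were made throughout on the log2(FPKM + 1) scale, on which a low gene needs a larger FPKM ratio. On it AEN, CDKN1A and NINJ1 were at least 1.5-fold higher at both times (6.4% of all genes) and CCNG1 that much lower (5.56% of all genes), while TP53I3 reached 1.5 only as an FPKM ratio. At 24 h alone 4 members were 1.5-fold higher and 1 lower (9.28% and 8.84% of all genes), and at 48 h alone 9 and 4 (20.8% and 20.3%).

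Among the cell cycle arrest genes, CDKN1A (ENSG00000124762, GRCh38 chromosome 6, 36676460 to 36687337, plus strand), the gene of the cyclin-dependent kinase inhibitor p21, stood at FPKM 41.4 and 38.9 in the controls, 101 and 176 with 5-FU, 60.7 and 50.9 with the 74 3NP extract, and 70.4 and 120.1 with the 76 3P extract, at 24 h and 48 h. All 6 treated libraries were above both controls, and the 5-FU 48 h library was the highest. With 5-FU it rose by 1.71 (SE 0.30, limma adjusted p 0.0310), and the FPKM ratio to the control of the same time was 2.45 (95% interval 2.34 to 2.56, counting error only) at 24 h and 4.53 (4.33 to 4.73) at 48 h. PLK3, a stress-responsive kinase gene, was at FPKM 11.6 and 20.6 with 5-FU against 8.20 and 7.15 in the controls. PLK2, a related kinase gene, went the other way, at 18.0 and 13.4 against 20.0 and 35.8, with ratios of 0.899 and 0.376. The antiproliferative gene BTG2 was lower at both times, with ratios of 0.881 and 0.615, and GADD45A, a growth arrest gene, was at ratios of 1.16 and 1.09.

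Of the genes that feed back on p53, MDM2, which encodes the ubiquitin ligase that degrades p53, stood at FPKM 4.32 and 3.63 in the controls, 8.94 and 4.38 with 5-FU, 3.03 and 2.62 with the 74 3NP extract, and 3.69 and 2.46 with the 76 3P extract. It was highest in the 5-FU 24 h library, at 2.07 times its control (95% interval 1.93 to 2.21), and stood at a ratio of 1.21 at 48 h. Over both times the difference was 0.56 (SE 0.22, limma adjusted p 0.141). PPM1D, the gene of a phosphatase that reverses damage signalling, was at ratios of 1.22 and 1.17. CCNG1, which encodes cyclin G1, was lower in both 5-FU libraries, at FPKM 28.2 and 23.8 against 51.5 and 44.7, a difference of -0.87 (SE 0.25, limma adjusted p 0.0746).

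Of 11 tested apoptosis genes, 9 had a positive difference with 5-FU (median 0.42) and 1 rose. AEN (ENSG00000181026, GRCh38 chromosome 15, 88621337 to 88632281, plus strand), the gene of an apoptosis-enhancing nuclease and one of those with a match to the response element before its start, stood at FPKM 11.5 and 8.79 in the controls, 24.0 and 23.4 with 5-FU, 13.5 and 7.90 with the 74 3NP extract, and 7.78 and 10.8 with the 76 3P extract. The 5-FU libraries alone stood apart from the other 6, and AEN rose by 1.16 (SE 0.27, limma adjusted p 0.0476). TP53I3, a quinone oxidoreductase gene, was at 14.8 and 20.4 with 5-FU against 9.60 and 8.75, with ratios of 1.54 and 2.33. RPS27L, a ribosomal protein-like gene, was at ratios of 1.30 and 2.29, but LACTB on the opposite strand overlaps it, at FPKM 2.74 to 6.38, and whether counting used strand was not stated in the sources used here.

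The classical effectors did not pass. BAX, which encodes a pore-forming protein of the outer mitochondrial membrane, stood at FPKM 34.8 and 39.6 in the controls, 46.2 and 56.9 with 5-FU, 44.6 and 36.8 with the 74 3NP extract, and 41.0 and 20.4 with the 76 3P extract. The 5-FU libraries were above both controls, at 0.46 (SE 0.31, limma adjusted p 0.349). PMAIP1, the gene of the BH3-only protein NOXA, was at ratios of 1.42 and 1.33, and BBC3, the gene of the BH3-only protein PUMA, at 0.879 and 0.905. PHLDA3, which encodes an inhibitor of AKT, was at 1.49 and 1.68, and PERP, a gene of a desmosome protein, at 1.02 and 1.70. TP53INP1 at 0.860 and 0.739, ZMAT3 at 1.07 and 1.07 and TRIAP1 at 0.990 and 1.25 made up the rest of the group.

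Of the DNA repair genes, DDB2, a sensor of ultraviolet lesions, was at ratios of 1.19 and 1.35 with 5-FU and XPC, which recognises bulky lesions, at 0.714 and 0.568. POLH, a lesion-bypass polymerase gene, was at 1.17 and 1.44, with GTPBP2 overlapping it on the opposite strand at FPKM 14.5 to 60.6. RRM2B, a subunit gene of ribonucleotide reductase, was at 1.33 and 0.923. The sestrin genes, whose products restrain mTORC1, were at 1.28 and 0.949 for SESN1 and at 0.956 and 0.940 for SESN2. GDF15 was at 0.894 at 24 h and 1.66 at 48 h, FDXR, a mitochondrial reductase gene, at 1.18 and 0.933, and DRAM1, a lysosomal autophagy gene, at 1.14 and 0.785. NINJ1, whose product ruptures the plasma membrane in dying cells, stood at FPKM 35.2 and 50.7 with 5-FU against 19.2 and 25.8, a difference of 0.89 (SE 0.22, limma adjusted p 0.0519). SUSD6, a membrane protein gene, was at 1.07 and 1.26.

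The calls for 5-FU rested on few libraries. The adjusted p of CDKN1A ranged from 0.00509 to 0.321 over 17 alternatives and stayed under 0.05 in 11, and without the control 24 h, control 48 h or 5-FU 48 h library it was 0.123, 0.321 and 0.187. That of AEN ranged from 0.0164 to 0.413 and stayed under 0.05 in 8, with 0.0554 after scaling to total reads, while the differences of both genes kept their sign in all 17. Fewer of all genes were called too when either control library or the 5-FU 48 h library was left out. CDKN1A and AEN also did not pass without either 74 3NP extract library, and fewer of all genes were called then. Those libraries are not part of this contrast and enter it through the time term and the pooled spread. Over all genes there were 336 calls upward and 404 downward in the main fit. Scaling to total reads made these 254 and 504, so the share of higher calls depends on the scaling.

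**Figure D2:**
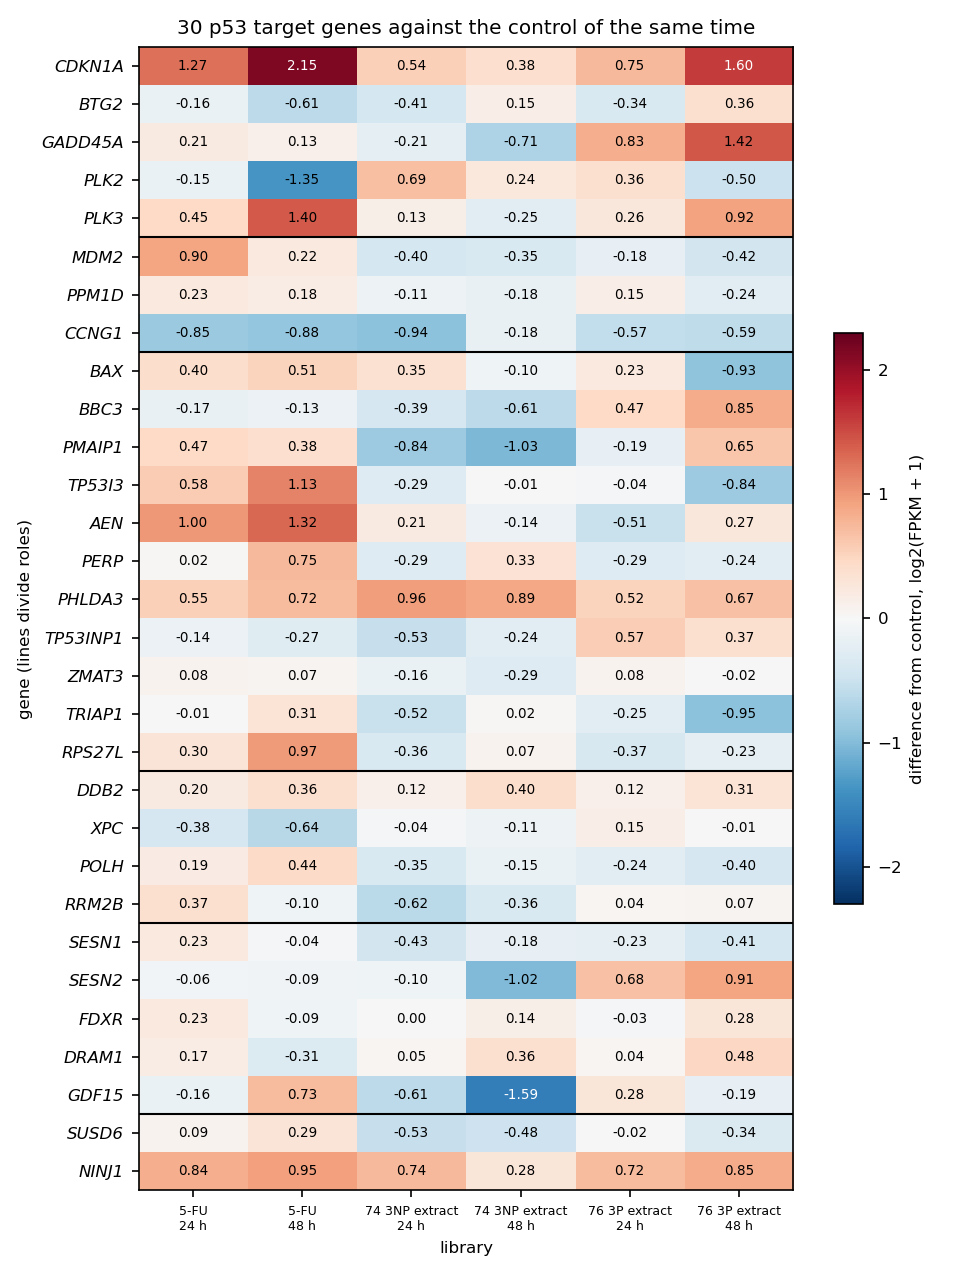
Difference of each treated library from the control of the same time on the log2(FPKM + 1) scale (colour and printed value) for the 30 members past the filter (rows, grouped by role) in the 6 treated libraries (columns). CDKN1A, PHLDA3, NINJ1 and DDB2 are above 0 in every column and CCNG1 is below 0 in every column.

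The second comparison addressed the 74 3NP extract. No member passed the test, PHLDA3 had the largest positive difference, and the apoptosis gene PMAIP1 and the stress hormone gene GDF15 had the largest negative ones. Limma called 0 of 30 members, against 0.0523% of all genes. At an unadjusted p under 0.05 there were 2 members higher and 4 lower, where 7.01% of all genes were higher and 5.12% lower at that level, and limma voom on recovered reads also called 0 members and 0.127% of all genes. Of the 30 members 10 were higher and 20 lower, with a median of -0.15 against -0.03 for all genes. Both libraries lay below both controls for 14 members (29.8% of all genes) and above both for CDKN1A, FDXR, NINJ1 and PHLDA3 (25.9% of all genes). On the log2(FPKM + 1) scale, at 24 h alone 3 members were 1.5-fold higher and 4 lower (10.2% and 7.57% of all genes), and at 48 h alone 1 and 5 (6.77% and 4.38%). The 3 comparisons with control share the same 2 control libraries.

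PMAIP1 stood at FPKM 9.61 and 9.27 in the controls, 13.6 and 12.4 with 5-FU, 4.94 and 4.04 with the 74 3NP extract, and 8.30 and 15.1 with the 76 3P extract. The 74 3NP extract libraries were the lowest of the 8, at ratios of 0.514 (95% interval 0.434 to 0.608) and 0.436 (0.363 to 0.522), and the fitted difference was -0.93 (SE 0.26, limma adjusted p 0.264). GDF15 stood at FPKM 276 and 306 in the controls, 247 and 508 with 5-FU, 181 and 101 with the 74 3NP extract, and 336 and 268 with the 76 3P extract. It too was lowest in both 74 3NP extract libraries, at -1.10 (SE 0.39, limma adjusted p 0.350). A difference of 1.5-fold or more at both times was seen downward for these 2 members, where 1.46% of all genes had one.

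PHLDA3 was the 1 member at least 1.5-fold higher at both times, where 4.45% of all genes were. It stood at FPKM 18.9 and 20.5 in the controls, 28.0 and 34.5 with 5-FU, 37.6 and 38.9 with the 74 3NP extract, and 27.4 and 33.2 with the 76 3P extract. All 6 treated libraries were above both controls, with the 74 3NP extract highest, at 0.93 (SE 0.19, limma adjusted p 0.169). CDKN1A stood at 0.46 (SE 0.30, limma adjusted p 0.561), MDM2 was at -0.38 (SE 0.22, limma adjusted p 0.512) and BAX at 0.12 (SE 0.31, limma adjusted p 0.899). BAX was above its control at 24 h and below it at 48 h, and without the control 24 h library its difference turned to -0.13.

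Among the other members the ratios of the 74 3NP extract to control at 24 h and 48 h were 1.65 and 1.18 for PLK2, 1.11 and 0.818 for PLK3, 0.857 and 0.603 for GADD45A, and 0.718 and 1.12 for BTG2. All 3 feedback genes were lower on the fitted scale, with CCNG1 at ratios of 0.511 and 0.882 and PPM1D at 0.903 and 0.853. BBC3 was at 0.738 and 0.631, RRM2B at 0.611 and 0.749, SESN1 at 0.582 and 0.804, SESN2 at 0.927 and 0.472, and SUSD6 at 0.648 and 0.673. The repair gene DDB2 was higher at 1.11 and 1.39, and XPC was at 0.970 and 0.909. SESN2 thus lay near its control at 24 h and under it at 48 h, whereas SUSD6 was lower by about the same amount at both times.

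The third comparison addressed the 76 3P extract. On the log2(FPKM + 1) scale CDKN1A, GADD45A, SESN2 and NINJ1 were at least 1.5-fold higher at both times, a pattern that 3.41% of all genes showed, and 0 members were that much lower, against 3.78% of all genes. CCNG1 lay just inside that limit, with FPKM ratios of 0.666 and 0.658. Limma called 0 of 30 members and 0% of all genes. At an unadjusted p under 0.05 there were 6 members higher and 1 lower, where 8.25% and 9.34% of all genes were, and limma voom on recovered reads called 0 members and 1.37% of all genes. Of the 30 members 17 were higher and 13 lower, with a median of 0.04 against -0.05 for all genes. Both libraries were above both controls for 7 members (22.4% of all genes) and below both for 5 (30.2% of all genes). At 24 h alone, on the same scale, 4 members were 1.5-fold higher and 0 lower (5.61% and 5.87% of all genes), and at 48 h alone 8 and 4 (13.7% and 15.2%).

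GADD45A stood at FPKM 29.6 and 38.6 in the controls, 34.4 and 42.2 with 5-FU, 25.4 and 23.2 with the 74 3NP extract, and 53.6 and 105 with the 76 3P extract. The 76 3P extract libraries were the highest and the 74 3NP extract libraries the lowest. Its ratio to control was 1.81 (95% interval 1.69 to 1.94) at 24 h and 2.72 (2.58 to 2.88) at 48 h, and the fitted difference was 1.13 (SE 0.27, limma adjusted p 0.120). CDKN1A stood at 1.18 (SE 0.30, limma adjusted p 0.129) and NINJ1 at 0.79 (SE 0.22, limma adjusted p 0.146), with FPKM of 32.4 and 47.5.

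SESN2 stood at FPKM 22.5 and 24.9 in the controls, 21.5 and 23.4 with 5-FU, 20.9 and 11.7 with the 74 3NP extract, and 36.6 and 47.4 with the 76 3P extract. The 76 3P extract libraries were both above the other 6, at 0.79 (SE 0.28, limma adjusted p 0.212). BBC3 stood at FPKM 8.75 and 13.5 in the controls, 7.69 and 12.2 with 5-FU, 6.46 and 8.51 with the 74 3NP extract, and 12.5 and 25.2 with the 76 3P extract. The 48 h library was the highest of all 8, while the 24 h library was under the control at 48 h. PMAIP1 was at ratios of 0.863 and 1.63, PLK3 at 1.22 and 2.01, PHLDA3 at 1.45 and 1.62, and TP53INP1, a gene of autophagy and apoptosis, at 1.75 and 1.45. On opposite strands, NDUFAF6 overlaps TP53INP1 at FPKM 1.16 to 2.04 and TCTEX1D4 overlaps PLK3 at 0.757 to 2.90.

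Other apoptosis members were lower in the 76 3P extract 48 h library. BAX was at ratios of 1.18 and 0.514, with a difference of -0.35 (SE 0.31, limma adjusted p 0.592) that turned to 0.17 without the 48 h library. TP53I3 was at 0.970 and 0.510, and TRIAP1, whose product supports mitochondrial lipid supply, at 0.831 and 0.496. MDM2 was at -0.30 (SE 0.22, limma adjusted p 0.511), RPS27L at 0.708 and 0.801, and POLH at 0.811 and 0.705. AEN, which rose with 5-FU, was at 0.675 and 1.23.

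**Figure D3:**
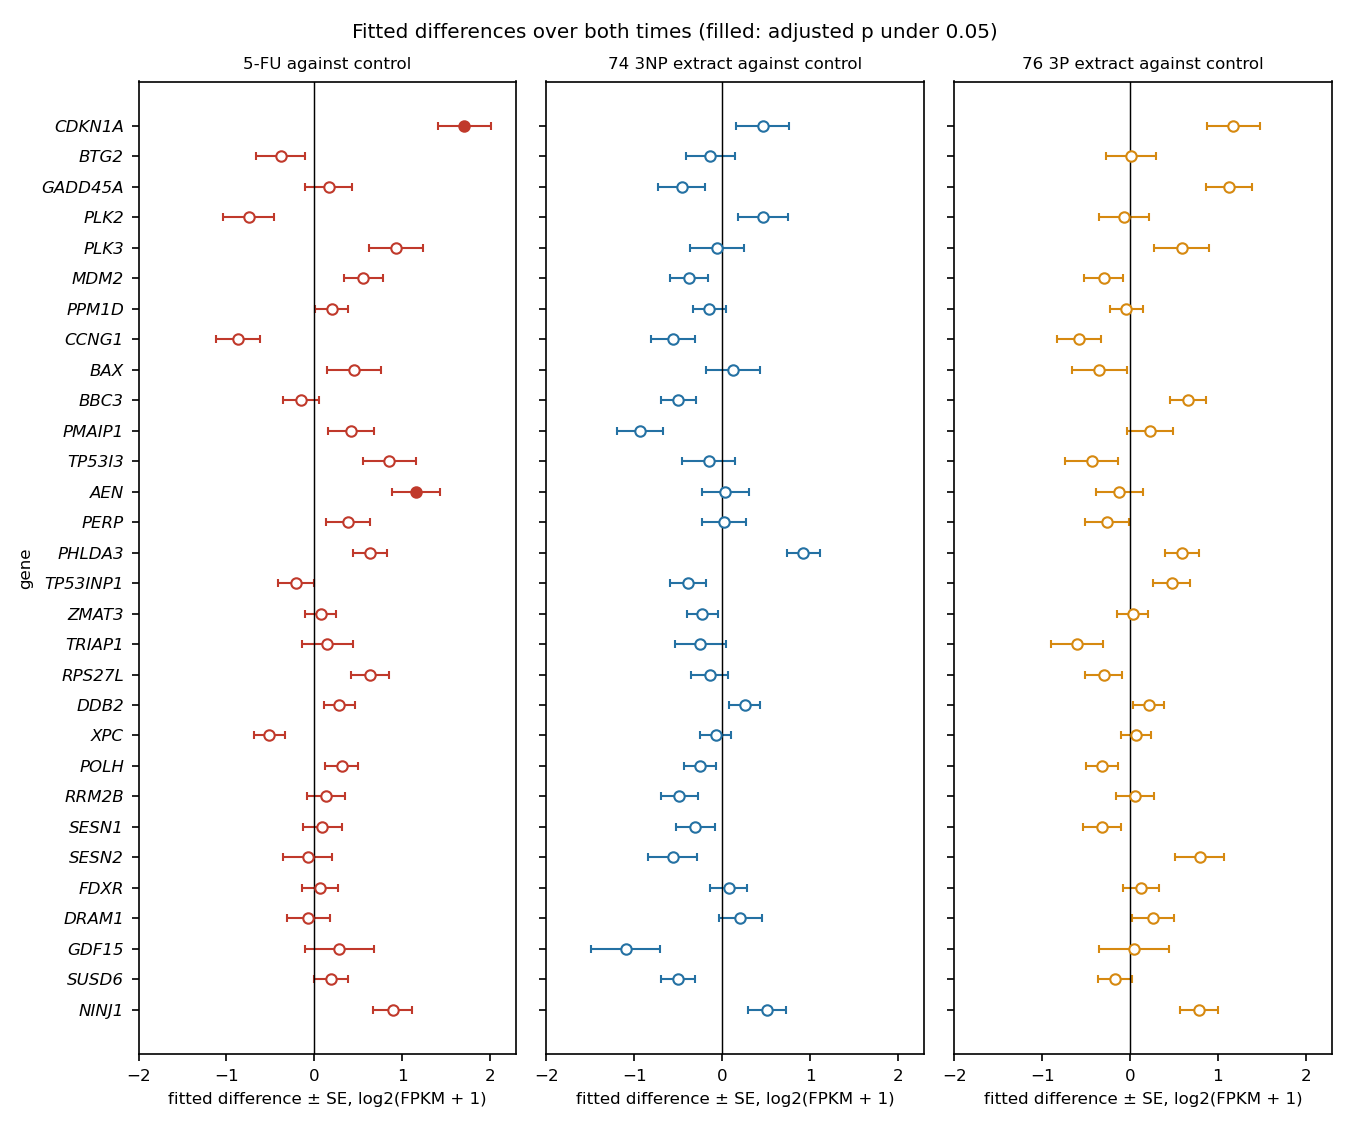
Fitted difference over both times for each treatment against control (x axis, log2(FPKM + 1), bars ± SE from limma) for the 30 members past the filter (y axis). CDKN1A and AEN with 5-FU are the filled circles, those with an adjusted p under 0.05.

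The treatments were then compared with each other at matched times, in 3 contrasts of the same fit that share libraries with the comparisons above. Against 5-FU, the 74 3NP extract was lower for CDKN1A, which fell by 1.25 (SE 0.30, limma adjusted p 0.0395), PMAIP1, which fell by 1.35 (SE 0.26, limma adjusted p 0.0253), AEN, which fell by 1.12 (SE 0.27, limma adjusted p 0.0382), and MDM2, which fell by 0.94 (SE 0.22, limma adjusted p 0.0374). PLK2 was the member higher with the extract, and rose by 1.21 (SE 0.29, limma adjusted p 0.0374). These 5 of 30 members, 1 higher and 4 lower, stand beside 10.8% of all genes called, 6.1% higher and 4.69% lower. Limma voom on recovered reads called 8 members and 13.9% of all genes. Over all members the median difference was -0.39, with 23 of 30 lower, against -0.04 for all genes. TP53I3 at -1.01, RPS27L at -0.78 and SUSD6 at -0.70 were also at least 1.5-fold lower at both times, with limma adjusted p-values of 0.0645, 0.0529 and 0.0541. Fewer members were called when the 5-FU 48 h library, either 74 3NP extract library or either control library was left out. Fewer of all genes were called in those fits too, so the fall was not particular to the members. With each library left out in turn, the difference ranged from -1.62 to -0.88 for CDKN1A and from -1.57 to -1.13 for PMAIP1. It ranged from -1.48 to -0.76 for AEN, from -1.25 to -0.63 for MDM2 and from 0.83 to 1.59 for PLK2.

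Against 5-FU, the 76 3P extract was lower for AEN, which fell by 1.28 (SE 0.27, limma adjusted p 0.0193), TP53I3, which fell by 1.29 (SE 0.30, limma adjusted p 0.0256), RPS27L, which fell by 0.94 (SE 0.21, limma adjusted p 0.0242), MDM2, which fell by 0.86 (SE 0.22, limma adjusted p 0.0328), and POLH, which fell by 0.63 (SE 0.19, limma adjusted p 0.0475). GADD45A rose by 0.96 (SE 0.27, limma adjusted p 0.0402) and BBC3 by 0.81 (SE 0.20, limma adjusted p 0.0314). These 7 of 30 members, 2 higher and 5 lower, stand beside 19.3% of all genes called, 8.78% higher and 10.5% lower. Limma voom on recovered reads called 9 members and 23.9% of all genes. SESN2 at 0.87 and TP53INP1 at 0.68 were at least 1.5-fold higher at both times, with limma adjusted p-values of 0.0622 and 0.0523. Scaling to total reads gave 5 members higher and 3 lower, and over all genes 1451 higher and 1021 lower in place of 1176 and 1411, so the balance of directions depends on the scaling. Without the 5-FU 48 h, the 76 3P extract 48 h, either control or either 74 3NP extract library, fewer members were called. Fewer of all genes were called then too. Leaving out the 5-FU 24 h library also gave fewer members, but more of all genes. Leaving out each library in turn, the difference ranged from -1.68 to -0.89 for AEN and from -1.83 to -0.75 for TP53I3. It ranged from -1.18 to -0.69 for RPS27L, from -1.17 to -0.55 for MDM2 and from -0.78 to -0.48 for POLH. For GADD45A it ranged from 0.57 to 1.35 and for BBC3 from 0.59 to 1.03.

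CDKN1A did not pass between 5-FU and the 76 3P extract, at -0.53 (SE 0.30, limma adjusted p 0.226). Between the extracts, GADD45A at 1.59 (SE 0.27), SESN2 at 1.36 (SE 0.28), PMAIP1 at 1.16 (SE 0.26) and BBC3 at 1.16 (SE 0.20) were higher with the 76 3P than with the 74 3NP extract. Their limma adjusted p-values were 0.117, 0.162, 0.174 and 0.127, so none passed, and limma called 0 of 30 members and 0% of all genes. At an unadjusted p under 0.05 there were 8 members, all higher with the 76 3P extract, where 5.57% of all genes were, and limma voom on recovered reads called GADD45A and 0.194% of all genes. Without the 76 3P extract 24 h library GADD45A and PMAIP1 passed.

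The 3 members that did not pass the filter were low throughout. TIGAR, a gene of a fructose bisphosphatase that spares glucose for the pentose phosphate pathway, had FPKM of 0.702 and 0.573 in the controls, 1.12 and 0.933 with 5-FU, 0.450 and 0.360 with the 74 3NP extract, and 0.618 and 0.469 with the 76 3P extract. The 5-FU libraries were the highest 2 and the 74 3NP extract libraries the lowest 2. EDA2R had 0 to 3 reads in 7 libraries and 23 in the 76 3P extract 48 h library, and SPATA18 had 0 to 4 reads in the same 7 and 19 there. That library also had the most genes above 0, 26712 against 23111 to 24665 in the others, and the part of this in the 2 values was not tested.

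Of 21 genes in a list of p53 regulators, 20 passed the filter. With 5-FU 8 were higher and 12 lower, and ATM, the kinase that signals DNA breaks, fell by 1.02 (SE 0.23, limma adjusted p 0.0447). Its FPKM was 2.85 and 2.72 in the controls and 1.27 and 0.537 with 5-FU. Its adjusted p reached 0.393 over the alternatives and stayed under 0.05 in 9 of 16. TP73, a p53 relative that binds the same elements, stood at FPKM 3.68 and 5.11 in the controls, 9.05 and 7.32 with 5-FU, 3.61 and 3.16 with the 74 3NP extract, and 1.62 and 1.76 with the 76 3P extract. Both 5-FU libraries were above both controls and both 76 3P extract libraries below them, at 0.77 (SE 0.21), -0.29 (SE 0.21) and -0.99 (SE 0.21), with limma adjusted p-values of 0.0648, 0.594 and 0.0963. TP63, the other relative, was at FPKM 0.154 or lower in all 8 libraries. Each extract had 4 regulators higher and 16 lower with 0 called by limma, among them the deacetylase gene SIRT1 at -0.70 (SE 0.18, limma adjusted p 0.231) with the 74 3NP extract and the checkpoint kinase gene CHEK1 at -1.23 (SE 0.23, limma adjusted p 0.0806) with the 76 3P extract.

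A further 67 genes with published p53 regulation were written down, and 57 passed the filter. With 5-FU 34 were higher and 23 lower, with a median of 0.17, and 5 rose and 1 fell, beside 2.51% of all genes called higher and 3.02% lower. FAS, the gene of a death receptor, rose by 1.24 (SE 0.22, limma adjusted p 0.0307), SERTAD1, a cell cycle regulator gene, by 1.73 (SE 0.36, limma adjusted p 0.0390), and CD82, PIDD1 and APOBEC3C rose too (named after their values were seen), while SYTL1, a gene of vesicle transport, fell by 1.53 (SE 0.27, limma adjusted p 0.0314). These calls too rested on few libraries. Without the 5-FU 48 h library SERTAD1 was at 1.06, and over the alternatives the adjusted p reached 0.381 for SERTAD1 (under 0.05 in 11 of 17), 0.291 for FAS (10 of 16) and 0.302 for SYTL1 (10 of 17). With the 74 3NP extract 22 were higher and 35 lower, with a median of -0.07, and with the 76 3P extract 34 and 23, with a median of 0.05, and limma called 0 in each. The lipid transfer gene PLTP was at 1.36 (SE 0.33) and 1.58 (SE 0.33) with the 74 3NP and 76 3P extracts, with limma adjusted p-values of 0.222 and 0.0963. APOBEC3C at 0.95 with the 74 3NP extract and PANK1 at -1.03 with the 76 3P extract missed the threshold (limma adjusted p 0.202 and 0.154). KCNN4 was at 0.96 with the 74 3NP extract, at FPKM 1.09 and 1.55 there and at most 0.628 in the other libraries. It passed the filter only through that extract, so its difference is no test. FAS was at 0.12 and 0.11 with the extracts (limma adjusted p 0.848 and 0.831), while TNFRSF10B, another death receptor gene, was at 0.46 with 5-FU, -0.12 with the 74 3NP extract and 1.35 (SE 0.37) with the 76 3P extract, with limma adjusted p-values of 0.434, 0.916 and 0.145.

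Genes of the integrated stress response are set beside the members that share its known regulation. Of 18 written, 15 passed the filter. With the 76 3P extract 13 were higher and 2 lower, with a median of 0.58, with the 74 3NP extract 2 and 13, with a median of -0.54, and with 5-FU 5 and 10, with a median of -0.38. The summed level of the 18 ranged from FPKM 669 to 1655 over the 8 libraries. ATF3, a stress transcription factor gene, was at 2.20 (SE 0.37) with the 76 3P extract, -0.95 (SE 0.37) with the 74 3NP extract and 0.36 (SE 0.37) with 5-FU, with limma adjusted p-values of 0.0767, 0.375 and 0.540. DDIT3 was at 1.92 (SE 0.65), -0.74 (SE 0.65) and 0.48 (SE 0.65) in the same order, with limma adjusted p-values of 0.195, 0.665 and 0.652, and ATF4 at -0.05, -0.45 and -0.70, with 0.919, 0.424 and 0.0783.

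Of the 5 members named above for this response, GADD45A, SESN2 and BBC3 were higher with the 76 3P extract and lower with the 74 3NP extract at both times, as ATF3 was. PMAIP1 and GDF15 were not, each lying below control with the 76 3P extract at 1 time. TP53INP1 and RRM2B, which were not named for this response, also showed that order. Of the tested response genes, DDIT3, TRIB3, PPP1R15A and SLC7A11 showed it beside ATF3, and the rest did not. DDIT4 and CEBPB were higher than control with the 74 3NP extract at both times. The share of all genes with that order was not counted. CHAC1 at 1.29 and DDIT4 at 1.99 with the 76 3P extract, and TRIB3 at -1.06 and PPP1R15A at -1.07 with the 74 3NP extract, also stood at least 1.5-fold from control at both times without passing, at limma adjusted p-values of 0.130, 0.0774, 0.289 and 0.418. With 5-FU, SLC7A11, the gene of a cystine transporter, fell by 1.90 (SE 0.44, limma adjusted p 0.0484), the 1 call among these genes. It was at -0.94 at 24 h and -2.87 at 48 h, and at -1.15 without the 5-FU 48 h library, and its adjusted p reached 0.422 over the alternatives and stayed under 0.05 in 9 of 17. The part of the stress response in the members' values was not tested.

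**Figure D4:**
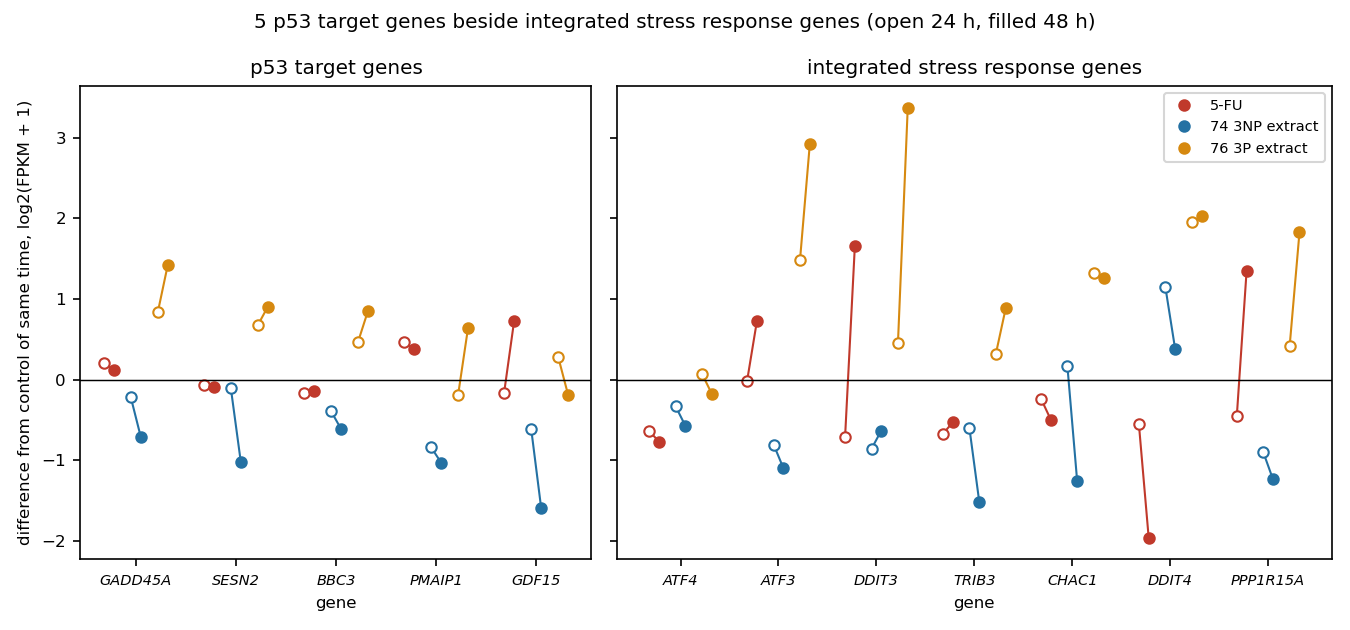
Difference from the control of the same time on the log2(FPKM + 1) scale (y axis) for 5 members (left) and 7 integrated stress response genes (right), chosen after their values were seen, by treatment (colour), with open circles for 24 h and filled circles for 48 h. With the 76 3P extract ATF3 reached 2.92 and DDIT3 3.37 at 48 h, and GADD45A 1.42.

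The last list holds 15 cell cycle genes that p53 is known to repress through p21. With 5-FU, where CDKN1A rose, 12 of 15 were higher and 3 lower, with a median of 0.46 and 0 called by limma. FOXM1 at 0.99 (SE 0.43), CCNE2 at 0.96 (SE 0.24) and E2F1 at 0.86 (SE 0.30) had the largest fitted differences among those at least 1.5-fold higher at both times, with limma adjusted p-values of 0.168, 0.0524 and 0.109. With the 76 3P extract all 15 were lower, with a median of -0.93 and 0 called by limma, among them E2F1 at -1.52 (SE 0.30), the proliferation marker MKI67 at -1.35 (SE 0.19) and CCNA2 at -1.29 (SE 0.31), with limma adjusted p-values of 0.0886, 0.0622 and 0.120. With the 74 3NP extract 13 of 15 were lower, with a median of -0.30 and 0 called by limma. CCNB1, the gene of cyclin B1, was at 0.24, -0.14 and -1.09 with 5-FU, the 74 3NP extract and the 76 3P extract, with limma adjusted p-values of 0.709, 0.907 and 0.216. By time, 5-FU had 7 of these genes higher and 8 lower at 24 h and 13 higher and 2 lower at 48 h, while CDKN1A was above its control at both. With the 76 3P extract all 15 were lower at each time.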

How the data were processed

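Alignment used HISAT2 2.0.5 with the human builds GRCh38 and hg38, per the submitters' processing notes. Counting tool, annotation release and strand use were not given in the sources used here. Expression came as FPKM per gene, as deposited, and a second deposited table gave counts of filtered reads (44361052 to 68674126) and percent GC (51.88 to 53.94) for each library. FPKM times gene length gave whole reads for 100% of values, to within 0.01 reads, and these recovered reads supplied the depths.

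Tests used log2(FPKM + 1), a scale that understates changes of low genes. In R 4.3.3, limma 3.58.1 fitted treatment plus time over the 8 libraries, with a variance trend and 6 two-sided contrasts. Benjamini-Hochberg adjustment ran over all 13388 genes at a threshold of 0.05. Spread was pooled across treatments, and a p-value reflects only the variation among these libraries, which may be technical. With 1 library per treatment and time, that variation is how far treatment differences diverge between 24 h and 48 h. A difference that grows with time therefore adds to the spread, and it cannot be told apart from technical variation. A ratio at 1 time compares 2 libraries, so it has no replicate, and its exact 95% interval (Clopper-Pearson) covers counting error only. Members, gene lists and tests were chosen with earlier results of these data known. Fits are printed for members past the test or 1.5-fold from control at both times, for CDKN1A, MDM2 and BAX in each comparison with control, for up to 3 genes of each other list by the same fold, and for a few preset genes. The fit was tested on simulated data that held the same fold at both times. That test does not bear on the p-values of differences that change with time. Promoters came from RefSeq (GRCh38.p14), matched by symbol for 29 members. Other tools were Python 3.11.15 with pandas 2.3.3, scipy 1.17.1, numpy 2.4.6 and matplotlib 3.10.9. Alternatives tried were other pseudocounts, filters, scalings and tests, and leaving out each library. The result of 1 gene is not reported here.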

Additional observations from a re-analysis of the deposited data

Results flagged for a closer look

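Members that stood at least 1.25-fold from the control in opposite directions at 24 h and 48 h were looked for, 1 library against 1 at each time. With the 76 3P extract, BTG2 was at FPKM 5.49 against 7.24 at 24 h and at 11.1 against 8.44 at 48 h, so its difference moved by 0.71 on the log2(FPKM + 1) scale between the times. PLK2 went the other way with the same extract, at 26.0 against 20.0 and then 25.0 against 35.8, a move of -0.86. These differences between times were not tested.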

How the results depend on the processing

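The 6 counts of called members and 84 fitted differences were recomputed under alternatives, and the causes of the changes were not tested. Without a filter on low values, limma called 0 members for 5-FU against control, 0 for the 74 3NP extract against 5-FU and 0 for the 76 3P extract against 5-FU. It also called 0 of all 33187 genes in each of these contrasts, so these counts say nothing particular to the members. For 5-FU against control, scaling to total reads gave 1 (5.63% of all genes) and no variance trend gave 1 (4.46% of all genes). Fitting only the 4 libraries compared gave 4 for 5-FU (8.99% of all genes) and 3 for the 74 3NP extract (10% of all genes) against control. Against 5-FU it gave 8 for the 74 3NP extract (13.4%) and 4 for the 76 3P extract (15.5%). A filter at FPKM 5 gave 8 for the 74 3NP extract against 5-FU (17.3%). Limma voom on recovered reads gave 8 there (13.9%) and 1 between the extracts (0.194%).

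Leaving out each library in turn, the count ranged from 0 to 5 for 5-FU, stayed at 0 for the 74 3NP extract and ranged from 0 to 1 for the 76 3P extract against control. It ranged from 0 to 7 for the 74 3NP extract and from 1 to 8 for the 76 3P extract against 5-FU, and from 0 to 2 between the extracts. The number of all genes called also changed from run to run in each contrast, so these ranges are not particular to the members. The fitted differences that changed sign did so only when a library was left out. With 5-FU these were DDIT3 (-0.44 to 1.40) and CCNB1 (-0.38 to 0.86). With the 74 3NP extract they were BAX (-0.13 to 0.37), FAS (-0.040 to 0.28), TNFRSF10B (-0.60 to 0.36), DDIT3 (-1.66 to 0.18) and CCNB1 (-0.32 to 0.033). With the 76 3P extract they were BAX (-0.87 to 0.17) and ATF4 (-0.16 to 0.050). No paired analysis was possible because each treatment and time has 1 library, so there are no replicate numbers to pair. The time term of the fit already matches each treatment with the control of its time. Depth limits EDA2R and SPATA18, at 23 reads or fewer per library.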
